A study of Mus musculus with 7 samples.

Results

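Transcripts of the pathway that runs through the kinases Akt and mTOR were followed in overloaded and sham-operated mouse plantaris muscle. The pathway was represented by 9 genes, Akt1, Akt2, Mtor, Rptor, Deptor, Eif4ebp1, Ddit4, Rps6kb1 and Tsc2, each read from the probe sets whose platform annotation gives that symbol and no other. Probe sets were found for 8 of the 9, out of 18193 genes with a probe set in the series. No probe set of the annotation used here carried Rps6kb1 alone, so the S6 kinase gene was not analysed here. Where a gene had several probe sets, the one with the highest mean log2(value + 1) over the 7 arrays led.

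The mice were Pax7-DTA animals, bred from Pax7-CreER and Rosa26-DTA parents and aged 4 months. In this cross tamoxifen activates a Cre recombinase expressed from Pax7, the transcription factor gene of muscle stem cells (satellite cells), which switches on a diphtheria toxin gene in those cells. The plantaris muscle of the calf was overloaded for 1 week by removing the muscles that share its work, or the mouse had a sham operation. There were 3 arrays of tamoxifen overload (replicates 1 and 2 male, replicate 3 female), 2 of vehicle overload (replicate 1 female, replicate 2 male), 1 of tamoxifen sham and 1 of vehicle sham (both male). All 4 groups carried the same 2 alleles and differed in tamoxifen or vehicle and in the operation. Tamoxifen-treated mice were meant to lose their satellite cells and vehicle-treated mice to keep them, per the labels. Tamoxifen was given in every case with the toxin allele, so the drug and the loss of cells cannot be told apart here. Each title names one mouse, but the design text of the series mentions RNA pooled over both legs and 11 animals, and how many animals an array stands for cannot be settled from them. P-values therefore measure the spread between these arrays, which may be technical.

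Akt is a serine/threonine kinase switched on below the insulin and IGF-1 receptors by phosphoinositide 3-kinase. It inhibits the TSC complex, whose GTPase-activating subunit is Tsc2, and so frees Rheb to activate mTOR. The mTOR kinase in a complex with Raptor (Rptor) phosphorylates S6 kinase and the translation repressor 4E-BP1 (Eif4ebp1), which then lets go of the cap-binding factor eIF4E. Deptor binds and inhibits mTOR, and Ddit4 (REDD1) is a stress-induced protein that restrains the same complex through TSC. In skeletal muscle the pathway is known for its part in growth under load, and its activity is set mainly by phosphorylation, which transcript levels do not measure.

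Each array was scaled by the authors to the same average brightness. Median signals still differed by operation, at 88.2 and 99.4 on the sham arrays and 105.8 to 127.7 on the overload arrays. All 8 genes were above background on all 7 arrays, where background is the signal (53.6) under which 95% of olfactory, vomeronasal and taste receptor genes lay. Markers of other cells moved with overload: 10 of 10 macrophage, 7 of 8 fibroblast and 5 of 5 measured proliferation markers rose, where 14.7% of all genes did. The summed signal of 10 macrophage markers was 26846 to 42612 on overload arrays and 5983 to 10661 on sham arrays. That of 8 fibroblast markers was 97897 to 123504 on overload arrays and 35808 to 45719 on sham arrays. The summed signal of 8 skeletal muscle markers was 210434 to 272070 on overload arrays and 307420 to 323899 on sham arrays, and no single one of them passed. Of satellite cell markers 2 of 6 rose, of tendon 3 of 6, of neutrophil 2 of 5, of endothelial 1 of 6 (and 1 fell) and of smooth muscle 1 of 6. Of adipocyte markers 3 of 5 and of nerve markers 1 of 4 fell, and lymphocyte markers, all under background on average, had no call. In whole muscle, fewer cells of a type and less RNA per cell cannot be told apart. The part these shifts have in the values below was not tested. Pax7 itself had signals of 57.9, 9.97 and 120 with tamoxifen overload, 274 and 349 with vehicle overload, 41.2 with tamoxifen sham and 92.8 with vehicle sham. The tamoxifen overload arrays lay below both vehicle overload arrays in Pax7, and the values of 9.97 and 41.2 were under background.

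The 2 Akt genes moved in opposite directions with overload. Akt1, the widely expressed isoform, had signals of 982, 1305 and 1249 in tamoxifen overload, 1144 and 1149.9 in vehicle overload, 665 in tamoxifen sham and 885 in vehicle sham. All 5 overload arrays lay above both sham arrays. Akt1 was 1.48-fold higher in overload than in sham averaged over both treatments (log2 difference 0.56 ± 0.17, SE, limma adjusted p = 0.0472). Akt2, the isoform best known for insulin-stimulated glucose uptake, had signals of 1319.95, 1197 and 1343 in tamoxifen overload, 1428 and 1891 in vehicle overload, 2088 in tamoxifen sham and 2352 in vehicle sham. All 5 overload arrays lay below both sham arrays, and vehicle overload replicate 2 came nearest to them. Akt2 was 1.47-fold lower in overload (log2 difference -0.56 ± 0.16, SE, limma adjusted p = 0.0396).

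A gene was called where its p, adjusted by Benjamini-Hochberg over all 18193 genes, was under 0.05. Akt1 and Akt2 were the 2 members of 8 called, where the same test called 22.9% of all genes (14.7% higher and 8.16% lower). Akt1 and Ddit4 were the members with every overload array above both sham arrays, a pattern held by 23.1% of all genes. Akt2 was the member with every overload array below both, against 18.3% of all genes. Both counts of members are near these shares. The median difference of the 8 members was -0.10 and that of all genes 0.07. Both Akt calls sat close to the threshold: over 18 alternative settings Akt1 stayed past it in 5 and Akt2 in 7. Akt1 ran between 0.27 and 0.79 and Akt2 between -0.85 and -0.46. The 0.79 and the -0.46 came from leaving out a sham array, which gives the effect in the other treatment alone. Centring each array on its median, which puts the median of all genes at -0.22 in place of 0.07, gave the lowest Akt1 value (adjusted p = 0.273).

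The ratio of the Akt1 to the Akt2 signal within an array does not depend on how that array was scaled. Probe sets differ in how brightly they bind, so only its change between arrays can be read. The ratio was 0.744, 1.09 and 0.931 in tamoxifen overload, 0.801 and 0.608 in vehicle overload, 0.318 in tamoxifen sham and 0.376 in vehicle sham. The lowest overload ratio, in vehicle overload replicate 2, was above both sham ratios. This separation was fixed in advance, since every overload array lay above both sham arrays in Akt1 and below both in Akt2. It therefore adds no support to the calls of these genes. The mean log2 ratio was -0.29 ± 0.32 in overload (SD, n = 5) and -1.53 in sham (n = 2), a 2.37-fold higher ratio in overload, given as a description with no test.

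**Figure D1:**
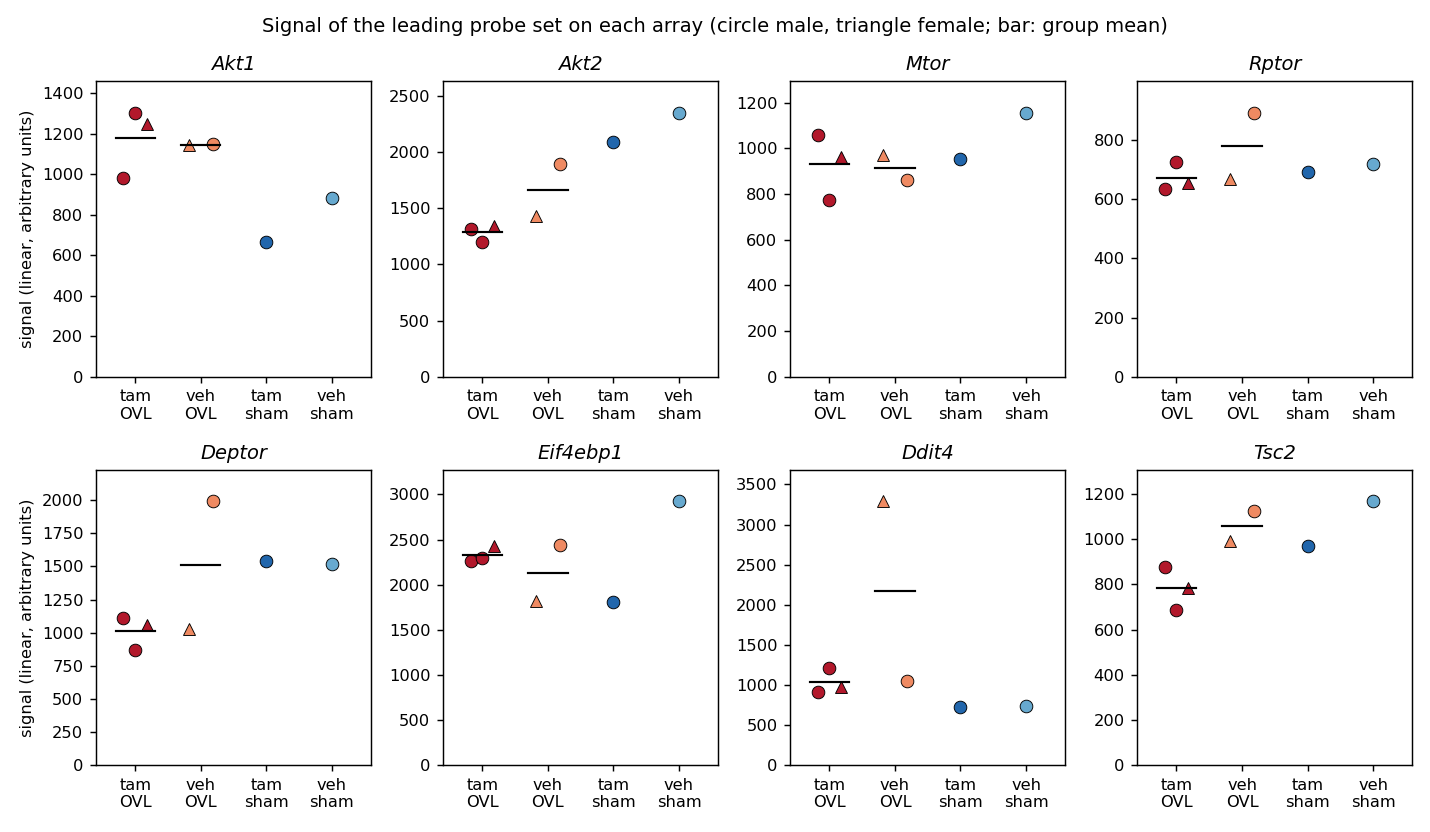
Signal of the leading probe set of each of the 8 measured genes (vertical axis, deposited intensity on a linear scale) on each of the 7 arrays, by group. Circles are male and triangles female arrays, and a bar marks the mean of a group with more than 1 array. Akt1 lies higher and Akt2 lower on all 5 overload arrays than on both sham arrays, and Ddit4 stands at 3288 on 1 vehicle overload array.

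Within tamoxifen-treated mice, Akt1 was 1.73-fold higher in overload (log2 difference 0.79 ± 0.22, SE, limma adjusted p = 0.0476), the 1 member of 8 called where 14.9% of all genes were. Akt2 differed by -0.66 ± 0.21 there and did not pass (adjusted p = 0.0690). With vehicle, 0 of the 8 were called by limma, against 8.79% of all genes, and 0 of 8 had an unadjusted p under 0.05. Akt1 differed by 0.34 and Akt2 by -0.46 with vehicle. A test of whether the effect of overload differed between tamoxifen and vehicle gave 0.45 ± 0.31 for Akt1 and -0.20 ± 0.29 for Akt2, and neither passed (adjusted p of 0.982 and 0.997). The comparisons within a treatment and their mean share arrays, so they do not support one another.

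Several probe sets read each Akt gene. The 3 Akt1 probe sets above background on every array had higher values in overload (log2 differences of 0.56, 0.27 and 0.77). The remaining one was above background on 1 array alone and lower than both sham arrays on the other 4 overload arrays, so its fitted value of 0.32 ± 0.82 gives no direction. All 3 Akt2 probe sets had lower values (-0.56, -0.45 and -0.60). When all 34945 probe sets with a single symbol were tested together, the leading Akt2 probe set passed (limma adjusted p = 0.0447). The leading Akt1 probe set did not (adjusted p = 0.0513), nor did any other probe set of either gene. On the other Akt2 probe sets vehicle overload replicate 2 stood above tamoxifen sham (808 against 689, and 196 against 185).

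The sequences around the starts of Akt1 and Akt2 are shown because these were the members whose levels passed the test, in opposite directions. RefSeq lists several start windows for each gene (2 for Akt1 and 4 for Akt2), and the one shown is that of the outermost start. Each holds 300 bases, 250 before and 50 after that start, from RefSeq on build GRCm38.p6, read 5′ to 3′ on the gene's strand. The Akt1 window is chr12:112674835-112675134 on the minus strand and the Akt2 window chr7:27591302-27591601 on the plus strand. Capitals mark matches to the motifs searched.
Akt1: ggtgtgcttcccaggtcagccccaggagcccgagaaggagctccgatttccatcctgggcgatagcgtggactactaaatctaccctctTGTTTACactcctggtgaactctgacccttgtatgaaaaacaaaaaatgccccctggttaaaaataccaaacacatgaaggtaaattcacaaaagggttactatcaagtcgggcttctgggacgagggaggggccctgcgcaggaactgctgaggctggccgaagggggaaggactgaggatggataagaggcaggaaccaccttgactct
Akt2: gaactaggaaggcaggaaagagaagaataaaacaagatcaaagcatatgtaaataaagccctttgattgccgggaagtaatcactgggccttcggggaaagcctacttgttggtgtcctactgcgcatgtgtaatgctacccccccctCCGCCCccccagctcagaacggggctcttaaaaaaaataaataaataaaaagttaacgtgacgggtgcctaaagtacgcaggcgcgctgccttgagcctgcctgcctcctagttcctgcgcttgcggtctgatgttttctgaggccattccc
Both strands were searched for 5 motifs, which do not overlap in these windows. The forkhead core GTAAACA, a motif of the FoxO factors that Akt phosphorylates, matched 1 time in the Akt1 window, read on the opposite strand and starting 161 bases before the start. Of 32851 windows of this length 3.65% hold it. The GC box GGGCGG matched 1 time in the Akt2 window, also on the opposite strand, 102 bases before the start, as it does in 35.7% of windows. The E box CACGTG, held by 7.15% of windows, matched in neither. Nor did the TATA box TATAAA, held by 13.6%, or the cyclic AMP response element TGACGTCA, held by 1.79%. A match is a string of letters in this window and nothing is drawn from it.

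Genes with the most similar profile over the 7 arrays were sought for the 2 called members among 12512 genes above background. For Akt1 they were Itgax, an integrin of macrophages and dendritic cells, and Sdf2l1, an endoplasmic reticulum protein (Pearson r of 0.990 and 0.982 over 7 arrays). Itgax had signals of 115, 272 and 199.6 in tamoxifen overload, 184 and 213 in vehicle overload, 25.8 in tamoxifen sham and 65.2 in vehicle sham, the tamoxifen sham value being under background. For Akt2 they were Tarbp2, a partner of Dicer, and Mrpl32, a mitochondrial ribosomal protein (r of 0.996 and 0.993). These are the best of many genes over 7 arrays that fall into sham and overload, so the coefficients are descriptions and carry no p.

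Of the mTOR kinase and its partners Raptor and Deptor, none was called for overload on its leading probe set. Mtor had signals of 1059, 774 and 961 in tamoxifen overload, 969 and 862 in vehicle overload, 952 in tamoxifen sham and 1156 in vehicle sham. Overload and sham overlapped, vehicle sham being the highest array. The difference was -0.24 ± 0.17 (log2, SE, limma adjusted p = 0.379), with a 95% interval of -0.65 to 0.16. Rptor, the scaffold that brings substrates to mTOR, had signals of 633, 725 and 654 in tamoxifen overload, 666 and 892 in vehicle overload, 692 in tamoxifen sham and 718 in vehicle sham. The sham values lay inside the overload range. The Rptor difference was 0.11 ± 0.17 (adjusted p = 0.690), with an interval of -0.27 to 0.50 and a negative value (-0.18) after median centring.

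Deptor, the inhibitor bound to mTOR, had signals of 1111, 869 and 1057 in tamoxifen overload, 1025 and 1989 in vehicle overload, 1543 in tamoxifen sham and 1517 in vehicle sham. One array, vehicle overload replicate 2, stood above both sham arrays, while the other 4 overload arrays stood below them. The difference of the leading probe set was -0.21 ± 0.24 (limma adjusted p = 0.611). Without vehicle overload replicate 2, which leaves 1 vehicle overload array, it was -0.66. All 6 Deptor probe sets had lower mean values in overload, and in the 5 above background on every array the differences ran from -0.88 to -0.21. Of these, 1 passed when all probe sets were tested together, at -0.88 ± 0.24 (adjusted p = 0.0359), with signals of 668, 585 and 850 in tamoxifen overload, 666 and 1014 in vehicle overload, 1222 in tamoxifen sham and 1580 in vehicle sham. On that probe set all 5 overload arrays lay below both sham arrays. Vehicle overload replicate 2 was the highest overload array on all 5 Deptor probe sets above background and on all 3 of Akt2.

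**Figure D2:**
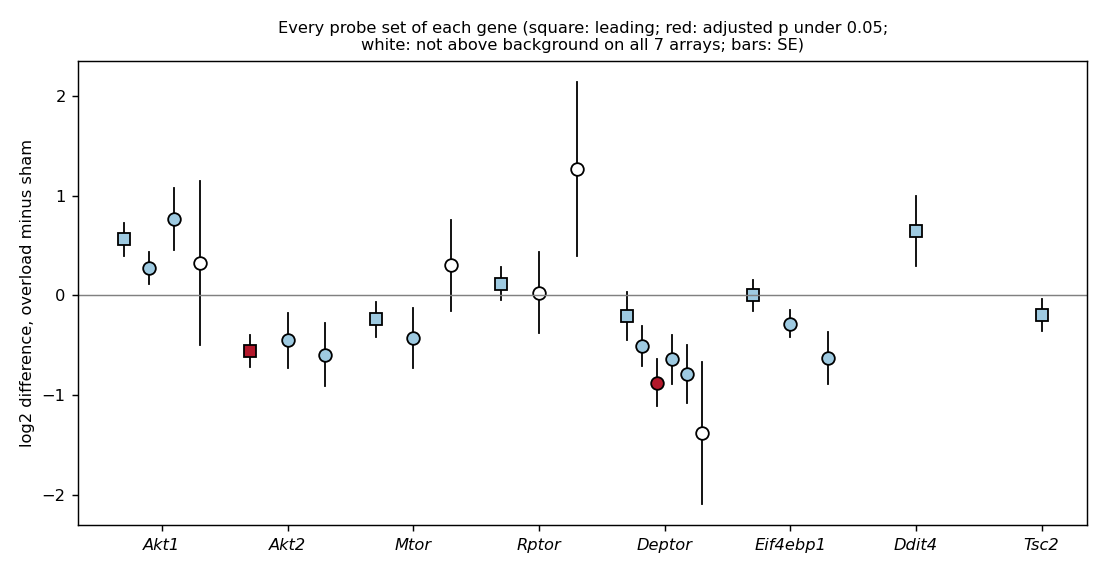
Log2 difference, overload minus sham averaged over both treatments (vertical axis), of each of the 24 probe sets of the 8 genes, with SE bars. Squares are leading probe sets, red points passed limma's test over all 34945 probe sets and open points were not above background on all 7 arrays. The 3 Akt1 probe sets above background lie above 0, and the 3 of Akt2 and the 6 of Deptor below it.

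The upstream brakes on mTOR were Tsc2 and Ddit4. Tsc2 had signals of 876, 688 and 785 in tamoxifen overload, 991 and 1124 in vehicle overload, 968 in tamoxifen sham and 1167 in vehicle sham. The tamoxifen overload arrays were lowest, and the vehicle overload arrays lay inside the sham range. Overload against sham gave -0.20 ± 0.17 for Tsc2 (log2, SE, limma adjusted p = 0.447). Ddit4 had signals of 914, 1210 and 978 in tamoxifen overload, 3288 and 1047 in vehicle overload, 723 in tamoxifen sham and 741 in vehicle sham. All 5 overload arrays were above both sham arrays, and vehicle overload replicate 1 was 2.72 times the next highest array. Its overload difference was 0.65 ± 0.35 and did not pass (adjusted p = 0.238).

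The Ddit4 result turned on that single array. With vehicle the overload difference was 1.00 ± 0.49 (limma adjusted p = 0.266). It was 0.50 without vehicle overload replicate 1 and 2.25 without replicate 2, each from 1 overload and 1 sham array with vehicle. The 2.25 sets the female overload array, corrected for sex from the tamoxifen arrays alone, against the male sham array. Without replicate 2 the mean over both treatments was 1.40, with the same limit. Vehicle overload replicate 1 is a female array, and so is tamoxifen overload replicate 3, where Ddit4 was 978. On vehicle overload replicate 1, 8 of 12513 genes above background exceeded every other array by more than 2-fold, where the other arrays had between 1 and 37 such genes. The 8, singled out after their values were seen, were Otud1, Ddit4, Hspa1a, Csrnp1, 5430401H09Rik, Depp1, Cebpd and Ccn2. Hspa1a (an inducible heat shock protein) had 4303 and Cebpd (a transcription factor of acute responses) 2969 there, against at most 1593 and 1389 on the other arrays.

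Eif4ebp1, whose protein holds eIF4E until mTOR phosphorylates it, had signals of 2265, 2295 and 2432 in tamoxifen overload, 1821 and 2439 in vehicle overload, 1814 in tamoxifen sham and 2923 in vehicle sham. The 2 sham arrays held the lowest and the highest value of all 7, with the 5 overload arrays between them. Overload against sham came to -0.0025 ± 0.16 (log2, SE, limma adjusted p = 0.994), the mean of 0.40 with tamoxifen and -0.41 with vehicle. The difference between these effects was 0.81 ± 0.28, with an unadjusted limma p of 0.0213 that did not pass over all genes (adjusted p = 0.784). At that unadjusted level Eif4ebp1 was 1 of 8 members, against 5.61% of all genes, and limma called 0 genes, or 0%, for this interaction. Each sham group is 1 array, so this difference rests on those arrays.

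The leading Eif4ebp1 probe set is of the kind whose probes can also match other transcripts, as the _x_at ending of its name says. Its other probe sets gave overload differences of -0.28 and -0.63, neither of which passed. Its closest profiles over the 7 arrays were those of the circadian output gene Dbp and of Per3 (r of 0.995 and 0.953), genes looked up after the values were seen. Dbp had signals of 1452, 1544 and 2213 in tamoxifen overload, 599 and 2426 in vehicle overload, 482 in tamoxifen sham and 4931 in vehicle sham, which is the order of the arrays in Eif4ebp1 as well. Arntl, the clock activator in antiphase with Dbp, had r of -0.862. Other clock genes looked up ran from r of 0.395 for Hlf and 0.416 for Nr1d1 to 0.850 for Ciart, with -0.794 for Npas2. The other Eif4ebp1 probe sets had r of 0.638 and 0.399 with Dbp. The labels do not say at which hour muscles were taken, and its part in these values was not tested.

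**Figure D3:**
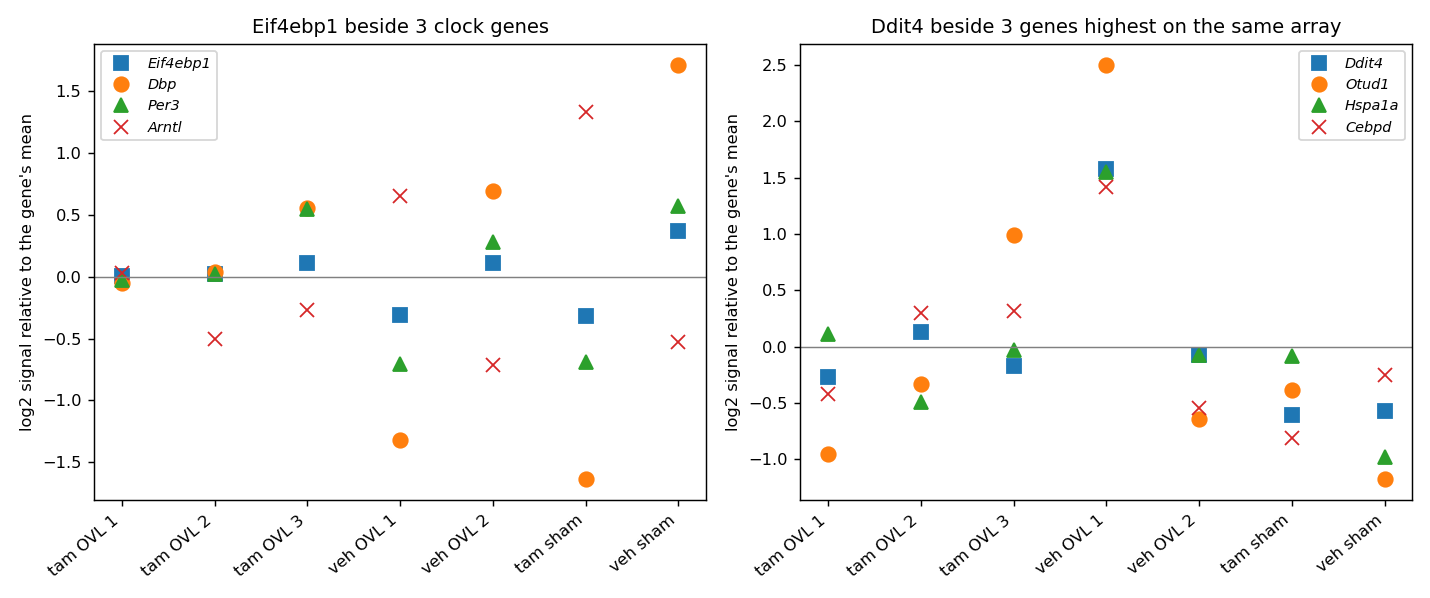
Log2 signal relative to each gene's mean over the 7 arrays (vertical axis) on each array, for Eif4ebp1 with the clock genes Dbp, Per3 and Arntl, and for Ddit4 with Otud1, Hspa1a and Cebpd. Eif4ebp1 and Dbp are highest in vehicle sham and low in tamoxifen sham and vehicle overload replicate 1, and the Ddit4 set is highest on vehicle overload replicate 1.

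The next question was whether satellite cell depletion altered these genes in overloaded muscle. For tamoxifen against vehicle within overload, limma called 0 of the 8 members and 0 of 18193 genes (0%). An ordinary linear model called 0 genes in every comparison, overload against sham included, so its 0 here cannot speak to depletion. At an unadjusted p under 0.05, 3 of the 8 members stood lower, where 10.6% of all genes (1932) were at that level. They were Tsc2 at -0.45 ± 0.17 (log2, SE), Akt2 at -0.37 ± 0.16 and Deptor at -0.56 ± 0.24. None passed over all genes (limma adjusted p of 0.429, 0.466 and 0.470). On their leading probe sets, Akt2 and Tsc2 had every tamoxifen overload array below both vehicle overload arrays, as 12.6% of all genes did. The other Akt2 probe sets overlapped between tamoxifen and vehicle overload, with differences of -0.10 and -0.66. For Deptor the leading probe set and the others above background gave differences from -0.65 to -0.25.

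Some marker sums differed between the same arrays. Macrophage markers summed to 30863 to 42612 with tamoxifen overload and 26846 to 27402 with vehicle overload, and neutrophil markers to 1063 to 2528 with tamoxifen overload and 421 to 694 with vehicle overload. Skeletal muscle markers summed to 210434 to 250891 with tamoxifen overload and 264243 to 272070 with vehicle overload. None of these ranges overlap, while those of every other marker list did. Satellite cell markers, of the targeted cells, summed to 1163 to 1710 with tamoxifen overload and 1699 to 2328 with vehicle overload. All 10 macrophage markers had positive and all 8 muscle markers negative differences, and none passed by itself. The part of these shifts in the member values was not tested.

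The member values also lean on vehicle overload replicate 2. Without it the fit, with its sex term, sets tamoxifen overload replicate 3 against vehicle overload replicate 1, 1 female array each. The difference was then -0.088 for Akt2, 0.043 for Deptor and -0.34 for Tsc2. Of the other members, Ddit4 stood at -0.75. It was 0.0053 without vehicle overload replicate 1, without tamoxifen overload replicate 3 or with male arrays alone. The sex term takes up a lone female array, so these settings all compare the male arrays. Akt1, Mtor, Eif4ebp1 and Rptor had differences of 0.042, 0.036, 0.12 and -0.24. The 95% interval was -0.35 to 0.43 for Akt1, so true differences within that range, 0 included, remain compatible with the values.

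**Figure D4:**
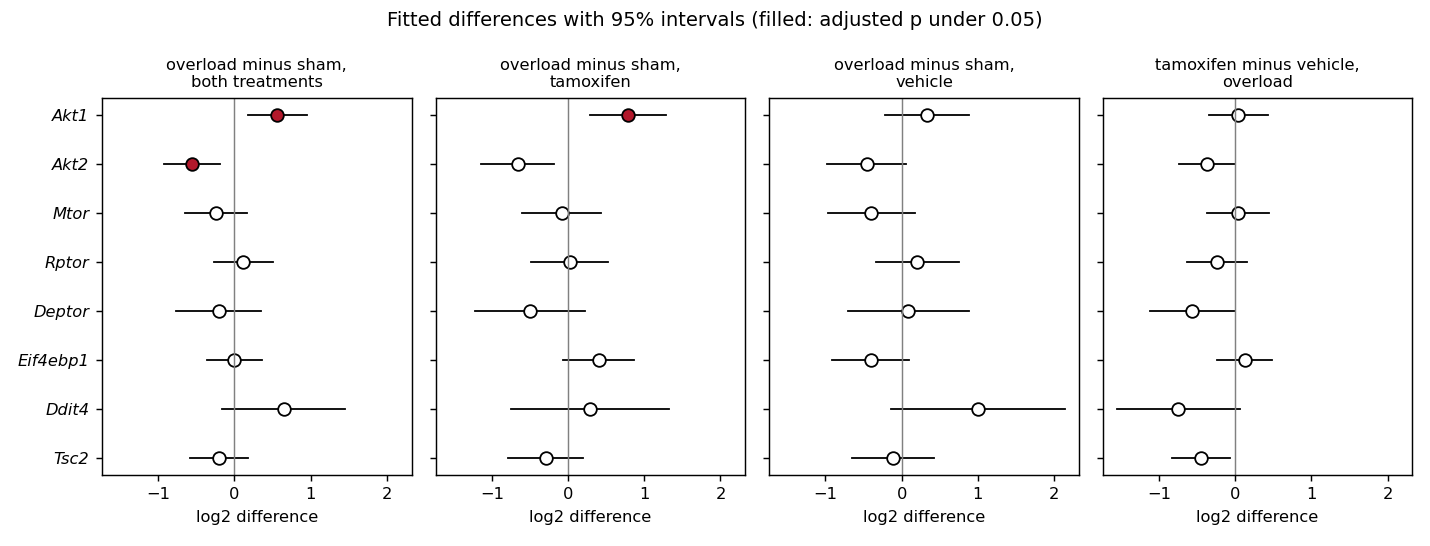
Log2 difference with its 95% interval (horizontal axis) of the 8 genes in each comparison. Filled points passed limma's test over all 18193 genes: Akt1 and Akt2 for the mean over both treatments and Akt1 with tamoxifen.

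In sham muscle each treatment had 1 array, so the values stand side by side with no replicate check. The log2 ratio of tamoxifen sham to vehicle sham was -0.69 for Eif4ebp1, -0.41 for Akt1, -0.28 for Mtor, -0.27 for Tsc2, -0.17 for Akt2, -0.053 for Rptor, -0.035 for Ddit4 and 0.025 for Deptor. Eif4ebp1 alone lay outside the range that holds the middle of all genes, whose 5th percentile was -0.56 and 95th percentile 0.90 with a median of 0.015 over 12513 genes above background.

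The rest of the pathway was read from 4 lists of its other genes, 81 in all, of which 76 were measured. With overload, 8 of the 76 rose, 14 fell and 54 did not pass, with a median log2 difference of -0.07 against 0.07 for all genes. Among all genes 14.7% rose and 8.16% fell. Median centring changed the split to 3 higher and 24 lower, and that of all genes to 1740 higher and 2710 lower, against 2678 higher and 1485 lower on the values as deposited. With tamoxifen 8 rose and 10 fell, where 9.98% of all genes rose and 4.9% fell. With vehicle 4 rose and 4 fell, where 6.35% of all genes rose and 2.44% fell, and no gene of the lists was called for tamoxifen against vehicle in overload.

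Of 17 measured genes of receptors, phosphoinositide 3-kinase and its regulators, 2 rose and 3 fell. Grb10, an adaptor that restrains insulin and IGF-1 receptor signalling and is itself an mTOR substrate, had signals of 5357, 6426 and 7003 in tamoxifen overload, 5959 and 5785 in vehicle overload, 1446 in tamoxifen sham and 1284 in vehicle sham. The lowest overload array was far above both sham arrays. Grb10 was 4.23-fold higher with overload (log2 difference 2.08 ± 0.15, SE, limma adjusted p = 0.000145). Pik3r3, a regulatory subunit of the lipid kinase, rose by 1.19 ± 0.20 on the log2 scale (adjusted p = 0.00523). Pik3ca, its catalytic subunit, and Insr, the insulin receptor, fell by 0.63 and 0.62 on the log2 scale (adjusted p = 0.0384 and 0.0209). They stayed past the threshold in 10 and 12 of 18 alternative settings. Averaging all Insr probe sets gave 0.17 instead, which did not pass. Phlpp1, a phosphatase of Akt, was the other gene that fell and was named after its value was seen.

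Of 12 genes of the TSC, Rheb and mTOR complexes, 2 fell and none rose. Tti1, which helps to assemble mTOR complexes, had signals of 569.8, 568 and 686 in tamoxifen overload, 778 and 761 in vehicle overload, 1159 in tamoxifen sham and 1215 in vehicle sham, with no overlap. It fell by 0.87 ± 0.15 on the log2 scale (adjusted p = 0.00551). Rheb, the GTPase that activates mTOR, fell by 0.47 ± 0.14 (adjusted p = 0.0472) and stayed past the threshold in 7 of 18 alternative settings. Rictor, the scaffold of the second mTOR complex, and Tsc1 did not pass, at -0.22 and -0.091.

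Of 34 measured genes of amino acid and energy sensing, 4 rose and 6 fell. Sesn3, a sestrin that signals stress to mTOR, had signals of 1864, 1867 and 2461 in tamoxifen overload, 2497 and 2899 in vehicle overload, 836 in tamoxifen sham and 904 in vehicle sham. All overload arrays were above both sham arrays, a rise of 1.38 ± 0.17 (log2, SE, limma adjusted p = 0.00125). Prkaa2, the catalytic subunit of AMP-activated kinase that prevails in muscle, had signals of 4449.7, 2884 and 4005 in tamoxifen overload, 5449 and 4392 in vehicle overload, 10004 in tamoxifen sham and 9310 in vehicle sham. It fell by 1.27 ± 0.20 (adjusted p = 0.00334), and Prkab2, a subunit of the same kinase, by 1.02 ± 0.20 (adjusted p = 0.00882). Rragd, a Rag GTPase that brings mTOR to lysosomes, fell by 1.10 ± 0.16 (adjusted p = 0.00248). The other calls, named after their values were seen, were rises of Slc7a5 (a leucine transporter, 0.92), Lamtor1 (0.89) and Castor1 (0.80) and falls of Stk11, Ddit4l and Flcn (log2 differences of -0.78, -0.75 and -0.63).

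Of 13 measured translation genes below mTOR and Akt, 2 rose and 3 fell, and their median was -0.26. Eif4ebp2, a repressor of the same family as Eif4ebp1, had signals of 613, 492 and 577 in tamoxifen overload, 743 and 675 in vehicle overload, 1019 in tamoxifen sham and 1052 in vehicle sham. It fell by 0.76 ± 0.17 (log2, SE, limma adjusted p = 0.0140), in contrast to the -0.0025 of Eif4ebp1. The difference between these genes was not tested. Eif4b, a cofactor of the helicase that unwinds 5′ leaders, fell by 0.75 ± 0.13 (adjusted p = 0.00530), while Eif4a1, the helicase, rose by 0.69 ± 0.14 (adjusted p = 0.0119). Pdcd4, an inhibitor of that helicase that S6 kinase marks for destruction, rose by 0.75 ± 0.14 (adjusted p = 0.00674). The third fall, Larp1 at -0.59, was named after its value was seen, and Rps6 and Eif4e did not pass at -0.077 and -0.20.

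**Figure D5:**
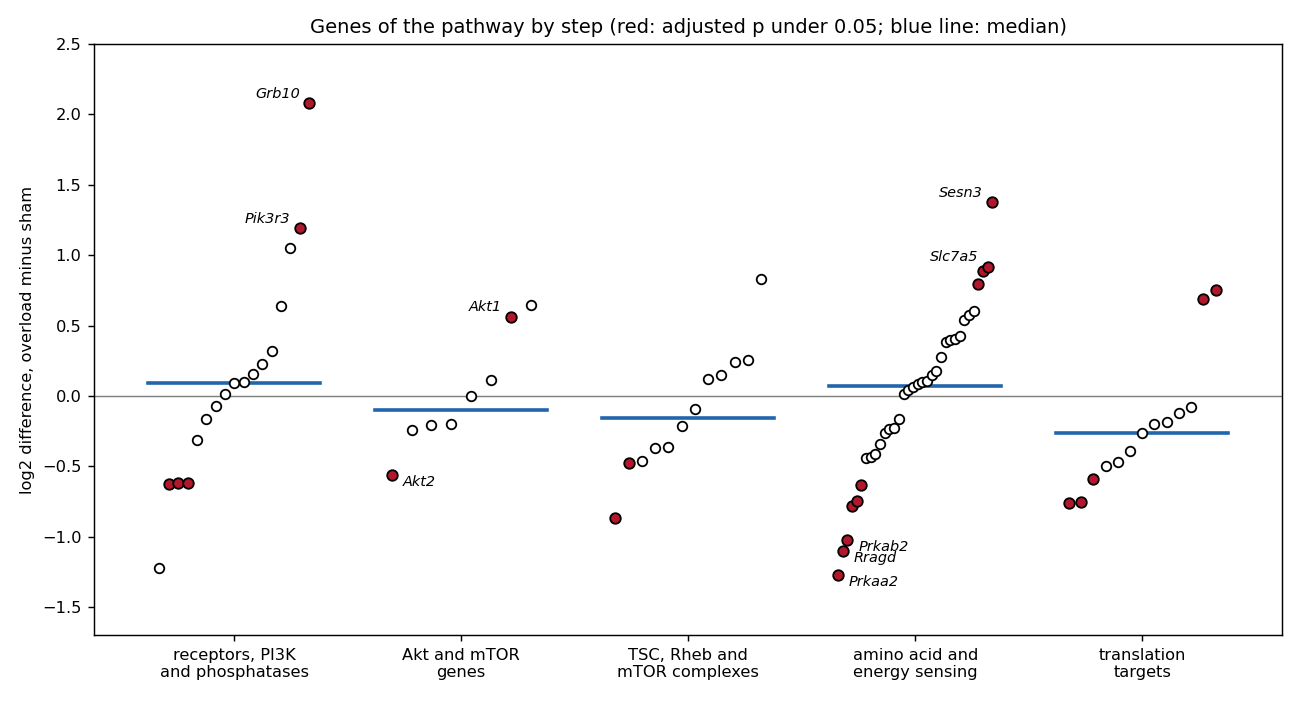
Log2 difference, overload minus sham averaged over both treatments (vertical axis), of the 8 members and of the genes of the 4 pathway lists. Each point is a gene, red where limma's test over all genes passed, and the blue line is the median of a list. Grb10 at 2.08 is the highest point and Prkaa2 at -1.27 the lowest.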

How the data were processed

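Per the labels, 7 Affymetrix Mouse 430 2.0 arrays each took labelled RNA of plantaris muscle. The deposited values are linear intensities, and on every array their mean without the lowest and highest 2% of probe sets is 500, so each array was scaled as a whole by the authors. Partek is named, without version, in the submitters' processing notes, and how probes were summarised is not given there. Of 45101 probe sets, 34945 had a single symbol (34741 matched by Entrez identifier, 0 symbols changed), 932 had several, 9160 none and 64 were controls.

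Each of 18193 genes was read from its leading probe set as log2(value + 1). With limma 3.58.1 and R 4.3.3 (reading with the data.table package, version 1.17.8) a model of the 4 groups and sex was fitted, with moderated variances along an intensity trend (2 residual and 5.95 prior degrees of freedom). Tests were two-sided with Benjamini-Hochberg adjustment over all genes, and SE is the moderated one. The lone sham arrays were assumed to vary like overload arrays. Both are male, so sex enters the fit. The background level is the 95th percentile of 77 receptor genes. The procedure was tested on simulated data. Alternatives varied the sex term, the model, scaling, pseudocount, dim-gene filter, probe set rule, variance model and arrays used. Members, lists and alternatives were chosen with earlier results of these data known. Named were all members, the up to 4 called genes of each list with the largest overload difference, and the 2 genes most like each called member. Marker lists of cell types were counted in the same fit. Precision is limited by having few arrays. Python 3.11.15 and matplotlib 3.10.9 drew the figures.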

Additional observations from a re-analysis of the deposited data

Results flagged for a closer look

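Eif4ebp1 is singled out because its overload arrays lay on opposite sides of the sham array in the 2 treatments. On its leading probe set all 3 overload arrays were above the sham array with tamoxifen, and both were below it with vehicle. The overload effect with tamoxifen minus that with vehicle was 0.81 on the log2 scale, and limma's test of this difference did not pass (adjusted p = 0.784, and 0.500 to 0.997 over 15 alternative settings). The value stayed between 0.50 and 1.10 in those settings. The difference rests on 1 sham array per treatment and on a probe set whose _x_at ending marks possible matches to other transcripts. On the other probe sets it was 0.50 ± 0.24 and 0.18 ± 0.48 (SE, limma adjusted p of 0.854 and 0.995 over all probe sets). There tamoxifen overload had 1305, 1348 and 1461 against 1377 in tamoxifen sham, and 131, 120 and 128 against 191. The pattern above was therefore not seen on them.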

How the results depend on the processing

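The additive model fits a single overload effect for both treatments. Its counts below, 2 members and 27 pathway genes, are therefore pooled ones, also where a treatment is named. The count of members called for overload against sham (2 for the mean of both treatments, 1 with tamoxifen, 0 with vehicle) depended on the settings. For the mean it was 0 with male arrays alone, quantile normalization, the mean of all probe sets, no intensity trend or an ordinary linear model, and 1 with median centring, a pseudocount of 16 or every probe set tested. Leaving out each array in turn gave 0 to 2, and Akt1 and Akt2 kept their directions in all 18 settings. With tamoxifen it was 2 without a sex term or with an additive model, 0 with male arrays alone, quantile normalization, a pseudocount of 16, the mean of all probe sets, every probe set tested, no intensity trend or an ordinary linear model, and 0 to 1 leaving out an array. With vehicle it was 2 with the additive model and 0 to 1 leaving out an array. Of pathway genes, 22 were called for the mean, 18 with tamoxifen and 8 with vehicle, and 0 in each with no intensity trend or an ordinary linear model, where no gene of any kind passed. Leaving out an array gave 8 to 28, 10 to 22 and 1 to 12. The mean of all probe sets gave 11 with tamoxifen and 5 with vehicle, and with vehicle male arrays alone gave 2, the additive model 27 and quantile normalization 4. Over all genes the count of 4163 was 0 in the fits without the trend, 2680 without vehicle sham, 1613 without tamoxifen sham and 1924 without vehicle overload replicate 2. Between treatments within overload it was 227 without tamoxifen overload replicate 1, against 0.

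Changes of sign were among values that did not pass, Insr excepted, which was 0.17 (adjusted p = 0.714) with the mean of all probe sets. With that setting Akt1 was -0.36 for tamoxifen against vehicle and -0.15 for the interaction, Akt2 0.066 and Mtor -0.048 for the interaction, Deptor -0.72 with vehicle, Eif4ebp1 -0.057 with tamoxifen and -0.046 for tamoxifen against vehicle, and Rptor -0.0032 with tamoxifen. With male arrays alone Akt1 was -0.022, Eif4ebp1 -0.097 and Ddit4 0.0053 for tamoxifen against vehicle, Ddit4 0.041 for the interaction, Eif4ebp1 0.034 for the mean and Rptor -0.031 with tamoxifen. The additive model gave -0.094 for Akt1, -0.12 for Eif4ebp1 and -0.059 for Mtor for tamoxifen against vehicle, pooled over both operations. Its overload effect, pooled over both treatments, was 0.038 for Eif4ebp1 and -0.24 for Deptor. The main fit gave -0.41 and 0.088 for these genes with vehicle. Median centring gave -0.10 for Akt1, -0.022 for Eif4ebp1 and -0.11 for Mtor for tamoxifen against vehicle, -0.22 for Deptor with vehicle, and -0.18, -0.26 and -0.095 for Rptor in the mean, with tamoxifen and with vehicle. Quantile normalization gave 0.051 for Eif4ebp1 in the mean and -0.063 for Rptor with tamoxifen. No sex term gave -0.087 for Deptor with vehicle and -0.047 for Rptor with tamoxifen. The cause of these changes was not tested.

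Leaving out each array in turn also turned signs. For tamoxifen against vehicle the ranges were -0.050 to 0.15 for Akt1, -1.75 to 0.0053 for Ddit4, -1.02 to 0.043 for Deptor, -0.097 to 0.42 for Eif4ebp1 and -0.083 to 0.14 for Mtor. For the interaction they were -0.42 to 0.083 for Akt2, -1.71 to 0.041 for Ddit4, -1.04 to 0.019 for Deptor and -0.34 to 0.026 for Rptor. For the mean they were -0.66 to 0.088 for Deptor, -0.41 to 0.40 for Eif4ebp1 and -0.044 to 0.21 for Rptor. With vehicle they were -0.67 to 0.39 for Deptor and -0.057 to 0.31 for Rptor. With tamoxifen they were -0.050 to 0.54 for Ddit4, -0.26 to 0.077 for Mtor and -0.031 to 0.14 for Rptor. Without a sham array the overload effect came from the additive model. It is then the effect in the treatment that kept its sham array and no mean of both. Both limits of Eif4ebp1 and the upper limits of Deptor and Rptor for the mean are such values. No paired analysis was possible because the titles number 2 arrays of 1 group alone.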
